A study of Mus musculus with 8 samples.

Results

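The replication-dependent histone genes were taken as every gene of the raw count table whose symbol begins with Hist1h, Hist2h, Hist3h or Hist4h and that had 80 or more raw counts over the 8 libraries. Of 68 genes with such a symbol, 67 met this minimum, of 24421 genes in the table. The members comprised 5 linker histone H1 genes, 18 H2A genes, 19 H2B genes, 12 H3 genes and 13 H4 genes. Hist3h2ba, with 121 counts, lay just inside the minimum, and Hist1h1t, with 28 counts, lay just outside it. Hist3h2bb-ps, a processed pseudogene, was kept because the rule uses symbols only.

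The libraries came from whole subcutaneous tumors of MC38, a mouse colon carcinoma line, grown in 9-week-old female B6 Kaede mice from 250000 injected cells. Every mouse carried the transgene for Kaede, a green fluorescent protein that turns red under violet light. On day 10, when tumors measured about 5 mm, violet light of 405 nm was shone for 3 min on 4 tumors (photoconverted tumors 1 to 4), and 4 further tumors without light were the controls (control tumors 1 to 4). All tumors were collected 5 h later and total RNA was sequenced. Reads were counted from whole tumors, so host cells and tumor cells were measured together.

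Histones H2A, H2B, H3 and H4 form the particle around which DNA is wound, and H1 binds the DNA between particles. The genes described here are transcribed mainly in S phase, lie in clusters and mostly lack introns. Their mRNAs end in a conserved stem-loop bound by the protein SLBP in place of a poly(A) tail, although some of the genes also give polyadenylated transcripts. They are seen in libraries of total RNA and are largely missed where poly(A) is selected.

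The members lay in 4 places of the GRCm38 (mm10) genome. The largest cluster held 53 members on chr13:21715763-23934851, the Hist2 cluster held 10 members on chr3:96219865-96270132 and the Hist3 cluster held 3 members on chr11:58948920-58956830. Hist4h4 stood alone on chromosome 6. In the GENCODE M21 transcripts, the 16-base stem-loop was found after the stop codon in 43 of the 47 members whose annotated transcript ran 60 or more bases beyond it, and in 45 members in all. It began a median of 31 bases (range 21 to 58) after the stop codon. The same search found it in 16 of 12441 other tested genes with that much sequence, or 0.129%. The 3′ ends below are shown because they are what sets these mRNAs apart. Each is 26 bases of the transcript, 5′ to 3′, with the stem-loop in capitals.
Hist1h1d: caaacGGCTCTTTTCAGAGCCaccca
Hist2h2aa1: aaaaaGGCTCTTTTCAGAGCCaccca
Hist1h2be: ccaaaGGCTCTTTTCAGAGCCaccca
Hist1h2bk: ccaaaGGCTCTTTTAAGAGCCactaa
Hist2h3c2: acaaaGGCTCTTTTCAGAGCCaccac
Hist1h4c: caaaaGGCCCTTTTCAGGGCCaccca
Hist1h4b: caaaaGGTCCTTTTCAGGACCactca

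Over the 45 members there were 8 distinct stem-loops, of which 2 were shared between classes. Each of the 12 H4 genes with a stem-loop had one seen in no other class, and Hist1h3g and Hist2h2ac each had one seen in no other member. The commonest form, that of Hist1h2be, was carried by 26 members, among them 3 H1, 10 H2A, 8 H2B and 5 H3 genes. The form of Hist1h4c was carried by 7 H4 genes, and that of Hist1h4b by 2. Hist1h2bk carried a form that was shared by 2 H2B and 3 H3 genes.

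Total counts ranged from 12576615 to 35844417 per library. The share of all counts assigned to Rn45s, the 45S ribosomal RNA precursor, ranged from 2.70% to 35.7%. It was 21.9% in photoconverted tumor 4, 35.7% in control tumor 2 and 23.2% in control tumor 4, while the other 5 libraries lay between 2.70% and 9.65%. The 3 libraries with the high share were also the 3 with the lowest total counts, so the share and the depth cannot be told apart. The 67 members together took 2.34% to 4.34% of all counts, and 3.38% to 5.66% once Rn45s was left out. Control tumor 2 also had the highest sum of 4 fibroblast markers, 7326 CPM (counts relative to the scaled library size) against 1559 to 2158 CPM in the others. Values without this tumor are given with the slopes. A sum was also taken of 6 genes listed for MC38 epithelial tumor cells (Krt8, Krt18, Krt19, Epcam, Msln and Ly6a). Of these, 4 had counts in all 8 libraries, and whether MC38 cells express each of them was not tested. This sum lay between 225 and 286 CPM in the 3 high-share libraries and between 303 and 381 CPM in the other 5. Summed neutrophil markers (14.99 to 17.9 against 20.4 to 100.2 CPM, 4 genes) and adipocyte markers (8.95 to 12.63 against 12.9 to 32.1 CPM, 3 genes) were likewise lower in the high-share libraries without overlap, and their part in the results was not tested. T cell, macrophage, neutrophil and endothelial markers had counts in all 8 libraries, so host cells were present in each. A lower level in such tissue can come from fewer cells of a type or from less RNA per cell, which cannot be told apart here.

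Between genes, levels were compared per kilobase of coding sequence, as mean CPM. In the 5 libraries with the lower Rn45s share, the highest were Hist2h3c1 and Hist2h3c2 (4182 CPM per kb), which encode H3, followed by Hist2h2aa1 and Hist2h2aa2 (3610 CPM per kb), which encode H2A, Hist1h4n (3181) and Hist1h4c (2988), which encode H4, and Hist1h2bq and Hist1h2br (2822), the highest H2B genes. In the other 3 libraries Hist2h3c1 and Hist2h3c2 were again highest (7858 CPM per kb), but Hist1h4c (6793) came next, Hist2h2aa1 stood at 4571 and Hist1h2bq at 1667. The order also depends on the length used. Per kb of all annotated exon sequence, over the 8 libraries, Hist1h4k (2962 CPM per kb) was highest and Hist2h3c2 stood at 2224.

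Several members share reads with a near-identical copy. Hist1h2bq and Hist1h2br, Hist2h2aa1 and Hist2h2aa2, and Hist2h3c1 and Hist2h3c2 had equal counts in all 8 libraries, and Hist1h2ao and Hist1h2ap differed by at most 0.0431%. Each of these pairs has 100% identical coding sequence at loci that do not overlap. They are therefore not independent measurements, and the class sums below count them both. Hist1h4m and Hist1h4n also have identical coding sequence, but their counts differed. Hist1h2be overlaps Hist1h1e by 496 bases on the same strand, so the division of reads there is uncertain.

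The first question was whether violet light changed the level of these mRNAs. In the sum over all 67 members, photoconverted tumors 1 to 4 stood at 29431, 35555, 29375 and 47967 CPM, and control tumors 1 to 4 at 29352, 31560, 27571 and 51671 CPM. The 2 groups overlapped throughout. Their means were 35582 ± 8751 CPM (SD, n = 4) in photoconverted tumors and 35038 ± 11208 CPM (SD, n = 4) in controls, a log2 difference of 0.04. By class the log2 differences were -0.15 for H1, 0.16 for H2A, 0.23 for H2B, 0.06 for H3 and -0.07 for H4, each smaller than the SD of log2 levels within the controls (0.40 to 0.83).

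By gene, with edgeR's quasi-likelihood test and Benjamini-Hochberg adjustment over 14468 genes, none of the 66 members tested passed an adjusted p of 0.05. None of the 14468 genes did, so that the background was 0%. At an unadjusted p under 0.05 there were 322 genes (2.23%), of which 1 was a member. With DESeq2, 19 genes passed the adjusted threshold and none was a member. No member had every photoconverted tumor above, or every one below, every control tumor, where the background was 0.684% above and 0.643% below. The median log2 fold change was 0.04 over the members and -0.01 over all genes. The medians by class were -0.14 for H1, 0.09 for H2A, 0.12 for H2B, 0.04 for H3 and -0.05 for H4. Leaving out single tumors turned the direction of each class median, for instance that of H2B to -0.15 without control tumor 2, that of H3 to -0.25 without photoconverted tumor 4 and that of H1 to 0.14 without control tumor 4.

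**Figure D1:**
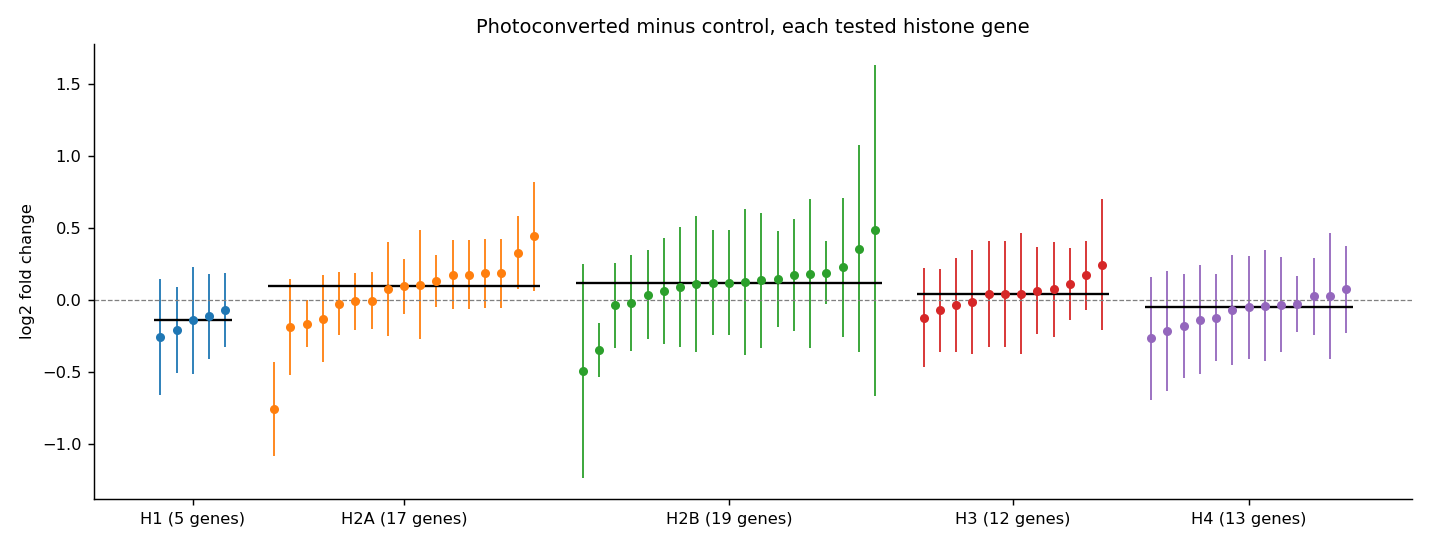
Log2 fold change (photoconverted minus control, n = 4 each) of the 66 tested histone genes by class. Points are genes, bars are standard errors and black lines are class medians, which lie between -0.14 and 0.12.

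The gene with the smallest p, Hist2h2ab, encodes an H2A protein and was measured at 12.5, 14.1, 12.96 and 21.3 CPM in photoconverted tumors and at 39.4, 16.6, 15.2 and 30.9 CPM in controls. Control tumors 1 and 4 were higher than every photoconverted tumor, and control tumors 2 and 3 lay among them. The log2 fold change was -0.76 (SE 0.33), with an unadjusted p of 0.0445 and an adjusted p of 0.999 in edgeR, and an exact two-sided permutation test over tumors gave p = 0.171. The smallest p that this permutation test allows is 0.0286. Hist2h2be, an H2B gene, had 2.53 to 3.15 CPM in photoconverted tumors and 3.11 to 3.91 CPM in controls (log2 fold change -0.35, exact permutation p = 0.0571). Hist3h2a, another H2A gene, had a log2 fold change of -0.17, with an exact permutation p of 0.429.

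The 3 members with the smallest p among those with a value above 0 also had groups that overlapped. Hist1h2ai, an H2A gene, stood at 262 to 282 CPM in photoconverted tumors and at 256, 106, 222 and 273 CPM in controls, with control tumor 2 far below the rest. Its log2 fold change was 0.33 (SE 0.25, exact permutation p = 0.143). Hist1h2an was at 0.44 (SE 0.38) and Hist2h2bb at 0.19 (SE 0.22), and the adjusted p in edgeR was 0.999 for either. For Hist2h2bb, photoconverted tumors lay between 488 and 574 CPM and controls at 561, 270, 491 and 554 CPM, and without control tumor 2 its fold change was -0.00089.

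Tumors with the same replicate number were also compared, since their deviations from the group means tended to go together, although the labels state no pairing. The photoconverted tumor was the higher in all 4 numbered pairs for 6 of 66 members, where the background over all genes was 7.2%, and the lower in all 4 for 8 members, where it was 7.18%. Hist1h2an was among the former and Hist2h2ab and Hist2h2be among the latter. With the number as a block, edgeR gave Hist1h2an a log2 fold change of 0.49 (adjusted p = 0.749), Hist2h2ab -0.68 (adjusted p = 0.775) and Hist2h2be -0.35 (adjusted p = 0.856), and no member passed.

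The levels of the members were next described against the Rn45s share of the libraries. The classes moved apart. Across the 3 libraries with the high share and the other 5, the summed levels of H1, H3 and H4 were higher in the high-share libraries, that of H2B was lower, and that of H2A depended on the library. Samples fall into separate sets by share, so no correlation of a class sum with the share is given. The slopes below rest on the contrast between these sets.

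The H4 sum was 5787 to 8446 CPM in the 5 libraries with the lower share. It was 12762 CPM in photoconverted tumor 4, 9738 CPM in control tumor 2 and 14002 CPM in control tumor 4, all above the other 5 (log2 difference 0.91). The H1 sum was 1952 to 2671 CPM in the 5 libraries and 4252, 3212 and 4770 CPM in the same 3, again without overlap (log2 difference 0.88). With libraries scaled by total counts only, the log2 differences were 0.45 for H4 and 0.41 for H1. The H3 sum was 7428 to 12203 CPM in the 5 libraries and 17516, 11503 and 18067 CPM in the 3, where control tumor 2 lay below photoconverted tumor 2.

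The H2B sum ran the other way. It was 7721 CPM in control tumor 1, which had the lowest Rn45s share, 7018 and 6550 CPM in photoconverted tumors 1 and 3, and 5516 CPM in control tumor 3. It was 4770 CPM in photoconverted tumor 2, 3796 CPM in photoconverted tumor 4, 5103 CPM in control tumor 4 and 2005 CPM in control tumor 2, which had the highest share. The 3 high-share libraries overlapped the others only through photoconverted tumor 2, whose share of 9.65% was the highest of the 5. The log2 difference was -0.88, and -1.34 with libraries scaled by total counts only. The H2A sum was 5923 to 7466 CPM in the 5 libraries, 9640 and 9729 CPM in photoconverted tumor 4 and control tumor 4, and 5103 CPM in control tumor 2, the lowest of the 8.

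**Figure D2:**
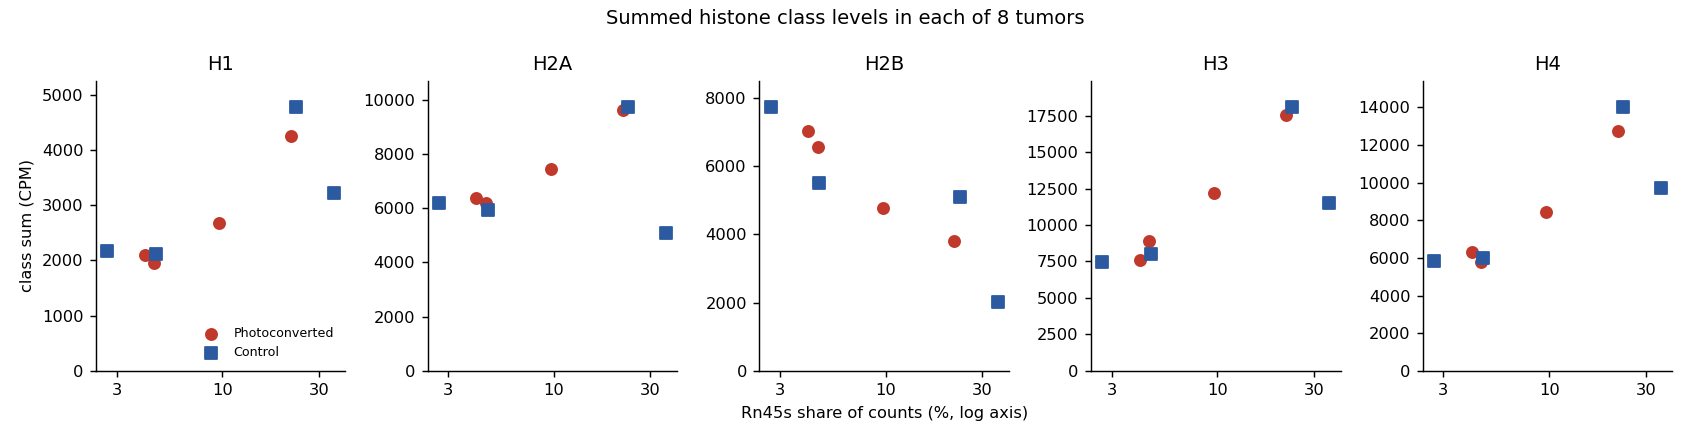
Summed CPM of each histone class in each of 8 tumors (y axis) against the Rn45s share of the library (x axis, log scale). Circles are photoconverted and squares control tumors, and H2B falls from 7721 CPM at a share of 2.70% to 2005 CPM at 35.7% while H4 is highest in the 2 tumors at 21.9% and 23.2%.

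The make-up of the histone mRNA pool changed with this. H2B made up 26.3% of the members' CPM in control tumor 1 and 6.35% in control tumor 2, and 23.8%, 13.4%, 22.3% and 7.91% in photoconverted tumors 1 to 4. The log2 ratio of the H2B to the H4 sum was 0.15, -0.82, 0.18 and -1.75 in photoconverted tumors and 0.40, -2.28, -0.12 and -1.46 in controls. The 3 high-share libraries were the lowest of the 8, and both light groups held tumors at each end. The log2 ratio of H2A to H4 was also lower in the high-share libraries, at -0.40, -0.93 and -0.53 in photoconverted tumor 4 and control tumors 2 and 4 and between -0.18 and 0.10 in the other 5, without overlap. The log2 ratio of H3 to H4 stayed between 0.24 and 0.62, and that of H1 to H4 between -1.66 and -1.42. These ratios are within a library and do not depend on the scaling between libraries.

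By gene, the slope on log2 of the Rn45s share was fitted with edgeR in all 8 libraries, with light group as a term. It is given as the log2 change per doubling of the share. Of 14467 genes tested, 46.4% passed an adjusted p of 0.05, with 22.6% lower and 23.8% higher, so that a slope past the threshold was common in these libraries. Among the members, 46 of 66 passed. They divided by class: 16 of 19 H2B genes fell, while 5 of 5 H1, 9 of 12 H3, 12 of 13 H4 and 4 of 17 H2A genes rose, and no member of these 4 classes passed in the lower direction. The medians were -0.41 for H2B, 0.28 for H1, 0.33 for H3, 0.35 for H4 and 0.12 for H2A (-0.05 with libraries scaled by total counts only), beside -0.01 over all genes. All 19 H2B slopes were below 0, from -1.30 to -0.04. Every tumor of the 3 high-share libraries lay above all of the other 5 for 19 members (4 H1, 2 H2A, 4 H3 and 9 H4 genes), against a background of 23.4%, and below them for 6 members, all H2B, against a background of 21%.

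**Figure D3:**
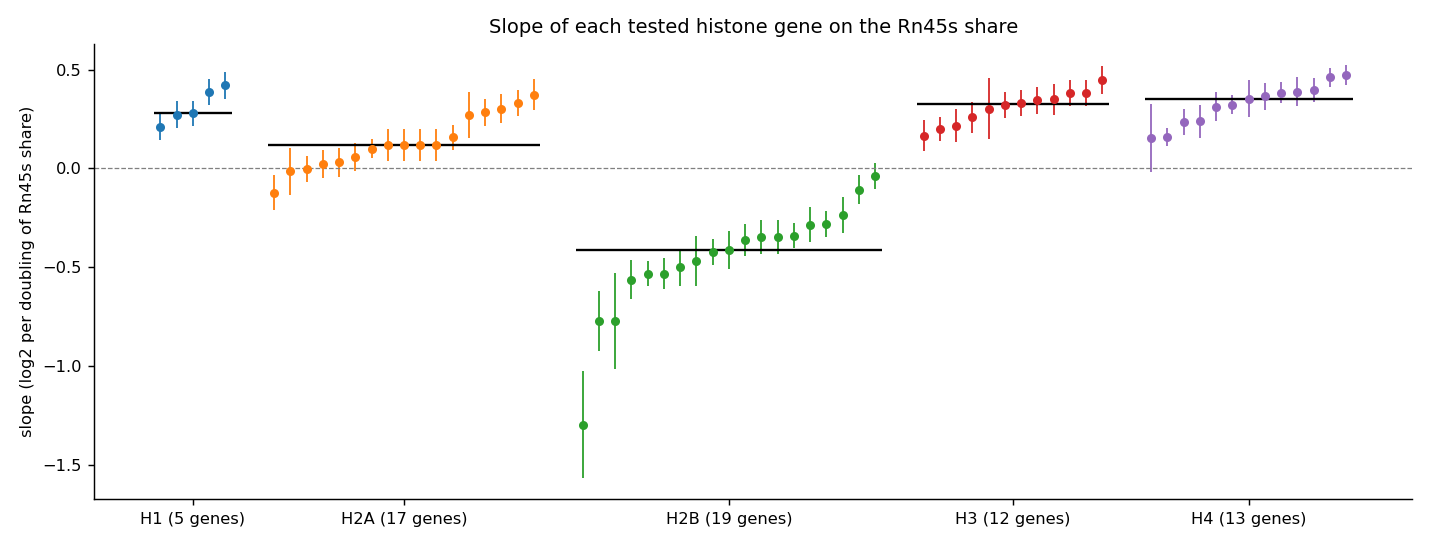
Slope of each tested histone gene on the Rn45s share (log2 change per doubling), grouped by class. Points are genes, bars are standard errors and black lines are class medians; all 19 H2B genes lie below 0, with a median of -0.41, and all H1, H3 and H4 genes lie above it.

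Scaling moved these values together. With libraries scaled by total counts only, the median over all genes was -0.18 instead of -0.01, and 8.31% of the genes called were higher instead of 51.2%. Higher calls among H1, H2A, H3 and H4 genes were then 12 instead of 30, and over all genes 706 instead of 3438. The class medians were then 0.11 for H1, 0.15 for H3, 0.18 for H4, -0.05 for H2A and -0.59 for H2B, so that H2A alone changed direction. The labels state no pairing by replicate number, and the check on deviations cannot tell pairing from the Rn45s share. The number was still tried as a block in edgeR. No gene then passed the adjusted threshold, while 20.7% of genes had an unadjusted p under 0.05. The share hardly differed within pairs 3 and 4, so this fit rests mainly on pair 2, with shares of 9.65% and 35.7%. The higher share is that of control tumor 2, which also had the highest sum of fibroblast markers. The fit therefore cannot separate the share from other differences of that tumor. In that fit 17 of 19 H2B genes had an unadjusted p under 0.05, and all 19 stayed below 0, with a median of -0.64. The median of H4 was 0.10 with 8 of 13 genes above 0, that of H1 was 0.06, and those of H3 (-0.06, 3 of 12 above 0) and H2A (-0.23) turned below 0. Of the 46 members called, 33 were called in each of the 8 fits that left out a tumor (4 of 5 H1, 4 of 4 H2A, 10 of 16 H2B, 7 of 9 H3 and 8 of 12 H4 genes). No such count is given over all genes, so nothing particular to the members is read from it. Without control tumor 1, 10 H2B genes and 35 of 67 members in all passed, where 5043 of 14591 genes did. Without control tumor 2, 58 of 67 members and 7161 of 14777 genes passed, with an H2B median of -0.29 and an H2A median of 0.25, which was 0.05 without control tumor 4.

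Among H2B genes, Hist1h2be had the smallest p. It was measured at 318, 186, 307 and 118 CPM in photoconverted tumors and at 358, 72.6, 255 and 160 CPM in controls. Its 3 lowest values were those of the 3 high-share libraries, with no overlap with the others. Its slope was -0.53 (SE 0.06, adjusted p = 0.000251 in edgeR). Hist1h2bm, at 200, 113, 193 and 80.6 CPM in photoconverted and 223, 37.7, 139 and 99.2 CPM in control tumors, had a slope of -0.53 (SE 0.08, adjusted p = 0.000672 in edgeR). Hist1h2bb had a slope of -0.42 (SE 0.07, adjusted p = 0.000896 in edgeR). Both repeated the order seen for Hist1h2be, with the high-share libraries lowest.

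The most abundant H2B mRNAs, Hist1h2bq and its copy Hist1h2br, stood at 1179, 798, 1129 and 658 CPM in photoconverted and 1300, 340, 928 and 892 CPM in control tumors. Their slope was -0.35 (SE 0.09, adjusted p = 0.00961 in edgeR), which did not pass without control tumor 1 (adjusted p = 0.0544), and control tumor 4 overlapped the lower-share libraries. Hist1h2bk fell from 702, 433, 693 and 801 CPM in photoconverted tumors 1 to 3 and control tumor 1 to 275, 144 and 441 CPM in the high-share libraries, with 558 CPM in control tumor 3. Control tumor 4 lay just above photoconverted tumor 2, and no other value of the 2 sets of libraries overlapped. Its slope was -0.50 (SE 0.10, adjusted p = 0.00263 in edgeR). The 3 H2B genes that did not pass were Hist1h2bj (slope -0.23, adjusted p = 0.0645), Hist2h2bb (slope -0.11, adjusted p = 0.259) and Hist2h2be (slope -0.04, adjusted p = 0.666). Without control tumor 4, Hist1h2bj (-0.36, adjusted p = 0.000401 in edgeR) and Hist2h2bb (-0.19, adjusted p = 0.0352) passed, and without control tumor 2 the slope of Hist1h2bj was -0.11. In all 8 libraries the Hist2 genes had the slopes nearest to 0 of the class.

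Among H4 genes, Hist1h4a was measured at 661, 1007, 630 and 1574 CPM in photoconverted and 609, 1553, 668 and 1826 CPM in control tumors. The 3 high-share libraries were the highest, and the slope was 0.47 (SE 0.05, adjusted p = 0.000167 in edgeR). Hist1h4c, the H4 gene with the most counts, stood at 858, 1255, 838 and 2099 CPM in photoconverted and 792, 1962, 875 and 2237 CPM in control tumors. Its slope was 0.46 (SE 0.05, adjusted p = 0.000171 in edgeR), and that of Hist1h4b was 0.38 (SE 0.05, adjusted p = 0.000484 in edgeR). Hist1h4n, at 833 to 1230 CPM in the 5 lower-share libraries, was at 1749 and 1842 CPM in photoconverted tumor 4 and control tumor 4 but at 990 CPM in control tumor 2, so that its groups overlapped. Hist1h4k also overlapped, with 794 CPM in control tumor 2 and 933 CPM in photoconverted tumor 2. The slopes of Hist1h4n (0.24) and Hist1h4k (0.35) passed the threshold and turned to -0.09 under the replicate block. With a tumor left out, Hist1h4n did not pass in 7 of 8 fits (slopes from 0.16, without control tumor 4, to 0.36), and Hist1h4k did not pass without photoconverted tumor 4 or without control tumor 1.

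The H3 genes with the most counts, Hist2h3c1 and Hist2h3c2, stood at 1470, 2421, 1747 and 3563 CPM in photoconverted and 1351, 2484, 1542 and 3571 CPM in control tumors. Control tumor 2 and photoconverted tumor 2 were close, and the 3 high-share libraries were still the highest. The slope was 0.38 (SE 0.06, adjusted p = 0.00147 in edgeR). Hist2h3b had a slope of 0.45 and Hist1h3d one of 0.35, the latter with control tumor 2 (1098 CPM) below photoconverted tumor 2 (1209 CPM). Under the replicate block the slope of Hist1h3d turned to -0.09.

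For linker histones, Hist1h1a stood at 462, 632, 425 and 1003 CPM in photoconverted and 432, 783, 444 and 1123 CPM in control tumors, with a slope of 0.39 (SE 0.06, adjusted p = 0.00128 in edgeR). Hist1h1d had the steepest slope of the class, 0.42, Hist1h1c had 0.27 and Hist1h1e had 0.21. Hist1h1e was at 576 CPM in control tumor 2, below the 595 CPM of photoconverted tumor 2. Its slope did not pass in 6 of the 8 fits that left out a tumor (adjusted p up to 0.116 in edgeR). Under the replicate block the slope of Hist1h1e turned to -0.05.

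Among H2A genes, the most abundant, Hist2h2aa1 and its copy Hist2h2aa2, stood at 1386, 1665, 1329 and 2213 CPM in photoconverted and 1353, 1086, 1306 and 2049 CPM in control tumors. Photoconverted tumor 4 and control tumor 4 were highest and control tumor 2 lowest, and the slope of 0.12 (SE 0.08) did not pass (adjusted p = 0.25 in edgeR). Without control tumor 2 the slope of Hist2h2aa1 was 0.25 and passed (adjusted p = 0.0013 in edgeR), and without control tumor 4 it was 0.05. Hist1h2ao and Hist1h2ap showed a like pattern, with a slope of 0.12 in all 8 libraries, 0.25 without control tumor 2 and 0.03 without control tumor 4. Both pairs turned below 0 with total-count scaling (-0.05) and under the replicate block (-0.25 and -0.23). The 4 H2A genes that rose were Hist1h2ac, Hist1h2ae, Hist1h2ag and Hist1h2ah, with slopes of 0.28 to 0.37. Under the replicate block, 14 of the 17 tested H2A genes were below 0, so not all of these 4 stayed above it, and none passed.

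**Figure D4:**
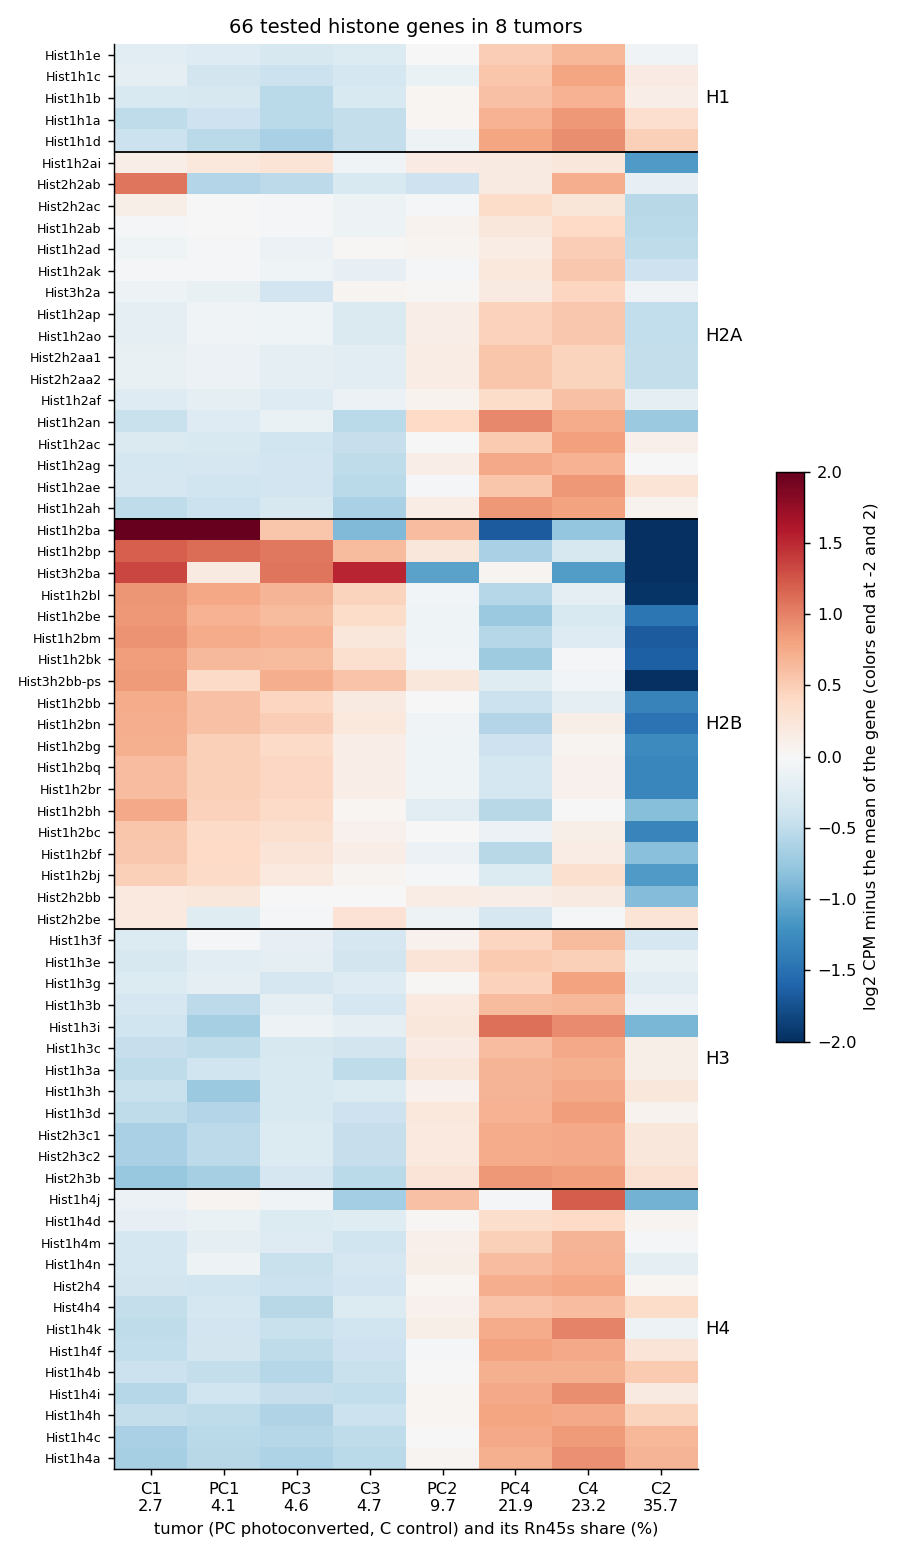
Log2 CPM of the 66 tested histone genes, each centered on its own mean, in 8 tumors ordered from left to right by Rn45s share (given in % under each tumor; CPM below 0.1 drawn as 0.1). Red is above and blue below the mean of the gene; the H2B block runs from red to blue, against the H1, H3 and H4 blocks, and control tumor 2 (35.7%) is less red than control tumor 4 throughout H3 and H4.

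H2A and H2B genes often stand head to head and share the stretch between their starts. With GENCODE M21 gene positions, 13 pairs of an H2A and an H2B member on opposite strands had starts separated by 172 to 305 bases. These pairs were defined by position alone, after the class values were known. In 12 pairs both genes were tested, and in 12 of 12 the H2B slope was below that of its H2A neighbor, by a median of -0.50 on the log2 scale (range -1.04 to -0.03). Since all 19 H2B slopes were below 0 and 14 of 17 H2A slopes above it, this count largely restates the class values, and the pairs of Hist1h2bq with Hist1h2ao and of Hist1h2br with Hist1h2ap hold nearly the same counts. The count was 12 with total-count scaling and 11 under the replicate block, where the exception was Hist2h2be with Hist2h2ac. The H2B slope was below 0 and the H2A slope above 0 in 10 of the 12 pairs, but in 5 with total-count scaling and 3 under the replicate block.

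Hist1h2bk and Hist1h2ah, with slopes of -0.50 and 0.37, illustrate such a pair. The log2 ratio of Hist1h2bk to Hist1h2ah CPM was 2.10, 0.82, 1.97 and -0.55 in photoconverted and 2.36, -0.69, 1.99 and 0.19 in control tumors. It was lowest in the 3 high-share libraries, as it was in 11 of the 12 pairs. The last 100 bases before each RefSeq start (GRCm38.p6) are shown because these upstream stretches overlap while the genes moved apart. Capitals mark the letters ATTTGCAT (an octamer bound by OCT1), CCAAT and TATAAA on either strand.
Hist1h2bk, chr13:22035721-22035820, plus strand: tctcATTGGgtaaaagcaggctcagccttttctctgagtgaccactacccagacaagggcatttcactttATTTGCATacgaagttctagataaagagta
Hist1h2ah, chr13:22035644-22035743, minus strand: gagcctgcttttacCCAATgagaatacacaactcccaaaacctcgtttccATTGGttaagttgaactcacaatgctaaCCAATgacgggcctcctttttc

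Promoters of 300 bases (250 before to 50 after the start) were matched for 61 of the 67 members. ATTTGCAT was found on either strand in 6 of 16 H2B and 7 of 18 H2A promoters and in none of the 5 H1, 10 H3 or 12 H4 promoters, against 1.75% of 27025 promoters. Because divergent neighbors share sequence, these counts are not independent. CCAAT was found in every H1, H2A, H2B and H3 promoter and in 3 of 12 H4 promoters, against 37.9% of all. TATAAA was found in 57.4% of the members' promoters, against 14.2% of all. A match says only that these letters are present.

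**Figure D5:**
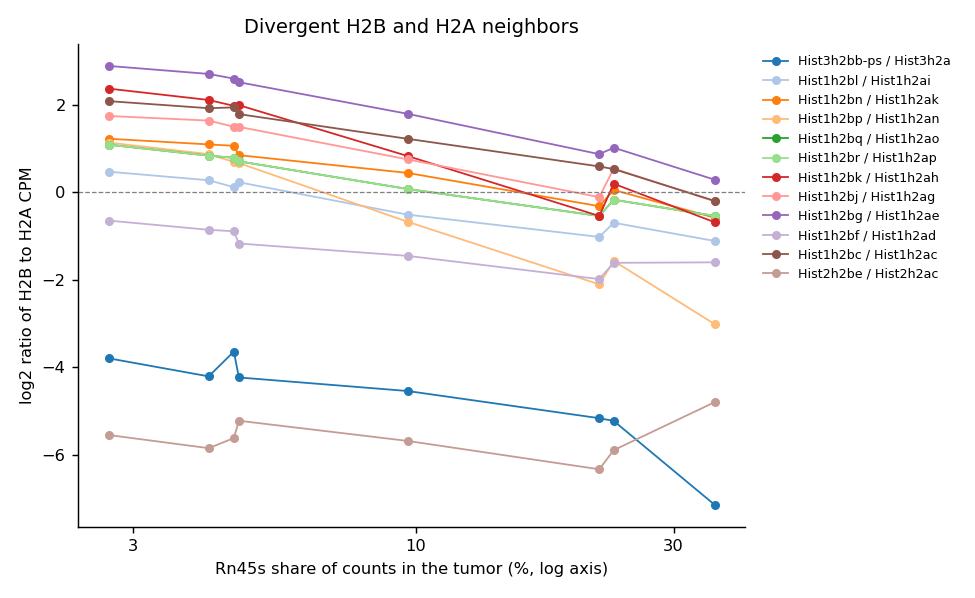
Log2 ratio of H2B to H2A CPM (y axis) in 12 divergent neighbor pairs, across 8 tumors placed by the Rn45s share of their library (x axis, log scale). Each line is a pair; 11 of 12 pairs are lower in each of the 3 tumors to the right (share above 20%) than in the 5 others, and Hist2h2be with Hist2h2ac is the exception.

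Base composition also moved with the slope over the whole table. Across 13028 tested genes that are no members, the slope and the GC content of the coding sequence had a Spearman rho of 0.58. Over 65 members rho was 0.38, and within 18 H2B genes it was 0.14. With the GC content of the transcript, rho was 0.60 in the other genes and -0.06 in the members. These are descriptions across genes of the same 8 libraries, and genes are not independent replicates. Median coding GC was 61.8% in H1, 69.5% in H2A, 63.1% in H2B, 67.4% in H3 and 65.7% in H4 genes, against 53.1% in the other genes. Among the 4268 other genes within the GC range of the H2B genes (55.6% to 64.0%), the median slope was 0.12, whereas it was -0.41 in H2B. H1 genes, with a range of 56.7% to 63.7%, had a median slope of 0.28, and 3377 other genes in that range one of 0.13. The H4 median was 0.35, beside 0.22 in 443 other genes of the same GC range. The H3 median of 0.33 was close to the 0.31 of 76 other genes in its range, and the H2A median of 0.12 lay below the 0.22 of 789 other genes. Each range runs from the lowest to the highest member of its class, and GC was not matched within it. The other genes, with a median of 53.1% in all, may lie nearer the low end of a range. That would lower their median slope.

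Genes around the histone mRNA cycle were read from lists drawn up by function. Their counts stand beside the background of 46.4% of all genes called (22.6% lower, 23.8% higher), and nothing particular to a list is read from them. Of 12 genes of histone mRNA transcription and processing, 5 fell, 4 rose and 3 did not pass the slope test in edgeR. Npat, which activates histone transcription, fell (slope -0.31, adjusted p = 0.000243), as did Casp8ap2 (-0.20) and Eri1, an exonuclease acting on the stem-loop (-0.15), while Lsm11, a subunit of the U7 particle, and Sympk, a scaffold of 3′ end cleavage, rose (0.20 and 0.18). Upf1, needed for histone mRNA decay, rose (0.17), although with total-count scaling it was at -0.00359. Npat was at 67.1, 51.3, 57.6 and 36.2 CPM in photoconverted and 65.3, 28.8, 65.2 and 40.3 CPM in control tumors, so that the high-share libraries were lowest.

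Of 10 histone chaperone genes, 3 fell, 5 rose and 2 did not pass. Chaf1a and Chaf1b, subunits of the assembly factor CAF-1, rose (0.24 and 0.20), as did Hira (0.35) and Daxx (0.22), which deposit H3.3. Rbbp4 and Nasp had slopes of 0.01 and 0.05 and did not pass. Of 22 S phase genes, 3 fell, 8 rose and 11 did not pass, with a median of 0.06. E2f1, an S phase transcription factor, rose (0.40, adjusted p = 4.29e-05), as did Cdt1 (0.33), while Prim1 fell (-0.28). Rrm2 passed with a slope of 0.12, but not in 7 of the 8 fits that left out a tumor (adjusted p up to 0.187 in edgeR). Mcm5 and Mcm6 (0.09 and 0.08) did not pass, but did without control tumor 2 (0.14 and 0.12, adjusted p = 0.0142 and 0.0188 in edgeR). Rrm2, Mcm5, Mcm6, Rbbp4 and Nasp were below 0 with total-count scaling. Photoconversion gave no call in any of these lists.

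Replication-independent histone genes, most of whose mRNAs carry poly(A), were also mixed. Of 9 tested, 2 fell, 3 rose and 4 did not pass, against the same background of 46.4%. H3f3a and H3f3b encode the same H3.3 protein; H3f3a fell (slope -0.49, adjusted p = 4.62e-05 in edgeR), at 231, 153, 217 and 91.7 CPM in photoconverted and 245, 69.1, 209 and 103 CPM in control tumors, while H3f3b was at -0.02 and did not pass. H2afx, which is known to give mRNA ending in a stem-loop as well as polyadenylated mRNA, rose (0.31), as did H2afj and H2afv (0.29 and 0.25), and H2afz, at 0.06, did not pass except without control tumor 2 (0.12, adjusted p = 0.0405 in edgeR). Of 4 other RNAs without poly(A) that were tested, Rpph1 (0.34), Terc (0.68) and Vaultrc5 (0.62) rose and Rmrp fell (-0.18), although it did not pass in 4 of the 8 fits that left out a tumor.

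The genes whose pattern over the 8 tumors was most like the mean of the members (Pearson r of log2 CPM, 0.957 to 0.984) were Timm50, Hbs1l, Smdt1, Ruvbl2, Rplp0, Ttf1, Zbed5, Cth, Rpusd4 and Gps1. The same measure against the H2B members alone, chosen after their values were seen, was highest for Rpl7a (0.998), a ribosomal protein gene at 349, 257, 335 and 206 CPM in photoconverted and 372, 126, 285 and 237 CPM in control tumors. These values of r are a description, picked from all genes tested over only 8 tumors.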

How the data were processed

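Bulk RNA-seq of 8 MC38 tumors (4 photoconverted, 4 control, grouped by the labels) was analysed. The values are raw read counts per gene, deposited by the authors for all 8 libraries in a single table; a second deposited table of normalized values was not used. The submitters' processing notes name CASAVA, FastQC, Trim Galore, HISAT2, featureCounts and DESeq2, with the build mm10; versions, the strand setting and the treatment of multi-mapping reads are not given in the sources used here. For the stranded total RNA kit, SMARTER is named in the labels and TruSeq in the methods. How reads from near-identical histone copies were assigned can change single-gene values.

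Counts were tested with edgeR 4.0.16 in R 4.3.3 (TMM scaling, filterByExpr by group, quasi-likelihood F-test, Benjamini-Hochberg over all genes tested, threshold 0.05). Photoconverted was compared with control. The slope on log2 Rn45s share had group as a term, with Rn45s itself left out of the genes tested. Exact two-sided permutation tests over tumors were added for single genes. CPM uses TMM-scaled library sizes, and class sums carry no test. Code was tested on simulated data. Alternatives were DESeq2 1.42.0, other scalings, no filter, leaving out Rn45s, the share as covariate, the 5 tumors with a share under 10%, a replicate block and leaving out each tumor.

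Any pairing by replicate number is read from the data, since the labels state none. Deviations from group means of same-numbered tumors correlated at 0.107 or more in all 4 pairs (mean 0.43, against -0.13 for different numbers). Single values for different numbers ran from -0.60 to 0.48 (photoconverted tumor 3 with control tumors 4 and 1). Some thus lay above the 0.107 of pair 2 and the 0.41 of pair 3. In both light groups tumors 1 and 3 had a low Rn45s share and tumor 4 a high one. Pairing and share therefore cannot be told apart by this check. The labels list 4 tumors per group; p-values measure the spread between these tumors. Total counts of 12576615 to 35844417 limit precision for low genes. The standard errors come from the edgeR fits and include the spread between tumors as well as counting error.

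Members, lists and the slope were chosen with earlier results of these data known. Genes named with values were, in each class, the 4 with the most counts; in each test, the 3 members with the smallest p in each direction; and in each list, the 3 with the most counts and up to 3 with the smallest p; and the 10 other genes most like the members. Rn45s was always named. Named outside this rule, after their values were seen, were the 3 H2B genes that did not pass the slope test, the H2A genes that rose, the divergent pair Hist1h2bk and Hist1h2ah, Rpl7a, and the genes of the closing section. Transcripts and positions came from GENCODE M21, and promoters from RefSeq GRCm38.p6. Figures were drawn with matplotlib 3.10.9.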

Additional observations from a re-analysis of the deposited data

Results flagged for a closer look

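In each light group of 4 tumors, the highest and the lowest CPM of the 67 members, of the 5 class sums and of their total were compared with the nearest other tumor. In 12 of 146 such groups the gap took more of the whole range than Dixon's 95% critical value allows, where chance gives about 1 in 20, or 7.3. The groups share tumors and some share reads, so they are not independent.

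In these groups, control tumor 4 was high among the controls for 7 genes. It was at 951 CPM for Hist1h1e (next 576), 340 for Hist1h2af (next 209), 222 for Hist1h2an (next 97.4), 1435 for Hist1h3b (next 836), 922 for Hist1h3f (next 488), 851 for Hist1h3g (next 415) and 1842 for Hist1h4n (next 990). The total over all members in control tumor 4, 51671 CPM, was also outlying (next 31560).

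Among photoconverted tumors, tumor 4 was high for Hist2h2ac (204 CPM, next 156) and tumor 2 for Hist1h4j (337 CPM, next 233). Hist1h2ba was high in photoconverted tumor 1 (51.9 CPM, next 10.6) and in control tumor 1 (44.2 CPM, next 4.03).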

How the results depend on the processing

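No histone gene passed in the photoconversion comparison under any alternative run. Over all genes, the count past the adjusted threshold was 0 in the analysis as reported and rose to 19 with DESeq2, 42 in the 5 tumors with a share under 10% and 11 without photoconverted tumor 4 (0 to 11 over tumors left out). Genes with an unadjusted p under 0.05 numbered 322 as reported, 643 with no filter, 869 under the replicate block, 1010 with the share as covariate, 1604 in the 5 tumors and 144 to 777 with a tumor left out (205 without photoconverted tumor 1, 187 without tumor 2, 144 without tumor 3, 777 without tumor 4).

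For the slope, the replicate block left 0 genes past the adjusted threshold, hence 0 H2B genes lower and 0 H1, H2A, H3 and H4 genes higher, and 15 of the 30 H1, H3 and H4 genes above 0; the cause was not tested. It changed no call of the photoconversion comparison. The 19 H2B genes stayed below 0 with all 8 tumors under each scaling. H2B genes called lower numbered 10 to 17 with a tumor left out, the 10 being without control tumor 1. Over all genes, lower calls ran from 2377 (without control tumor 1) to 3523 (without control tumor 2), against 3275 as reported. With total counts only, higher calls fell from 30 to 12 in H1, H2A, H3 and H4, and from 3438 to 706 over all genes. The class log2 differences between the 3 high-share libraries and the others were then 0.41 for H1, -0.18 for H2A, -1.34 for H2B, 0.36 for H3, 0.45 for H4 and 0.0404 in all. This scaling counts Rn45s in the library size.

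Under the replicate block, 40 of the 66 tested members kept the sign of their slope (4 of 5 H1, 6 of 17 H2A, 19 of 19 H2B, 3 of 12 H3 and 8 of 13 H4 genes). Among the genes chosen for naming, those whose slope changed sign were Hist1h1e -0.0481, Hist2h2aa1 and Hist2h2aa2 -0.253, Hist1h2ao and Hist1h2ap -0.228, Hist1h3d -0.0876, Hist1h4n -0.0871, Hist1h4k -0.0895, H2afz -0.0464 and Rbbp4 -0.051. With total counts only, those among the named genes were Hist2h2aa1 and Hist2h2aa2 -0.0533, Hist1h2ao -0.0529, Hist1h2ap -0.0529, H2afz -0.115, Upf1 -0.00359, Rbbp4 -0.162, Nasp -0.123, Rrm2 -0.0582, Mcm6 -0.0954 and Mcm5 -0.0872. With a tumor left out, the slope ran from -0.186 (without control tumor 4) to 0.00993 (without control tumor 2) for Hist2h2bb, from -0.0489 (control tumor 4) to 0.0269 (control tumor 2) for H3f3b and from -0.00921 (control tumor 4) to 0.0565 (control tumor 2) for Rbbp4. The photoconversion log2 fold change of Hist2h2bb ran from -0.00089 (without control tumor 2) to 0.288 (without control tumor 1).

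Taking copies with equal counts once, an alternative chosen after seeing the data, gave class log2 differences of -0.88 for H2B and 0.91 for H4 between the high-share libraries and the others. The members with the fewest counts, and so the least precision, were Hist3h2ba (121 counts), Hist2h2be (645), Hist1h2aa (923, not tested) and Hist3h2bb-ps (942).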

Other observations

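A pair of members that are best known from the testis, Hist1h2aa and Hist1h2ba, stood apart and were chosen for mention after their values were seen. Hist1h2aa, an H2A gene, was the only member that did not pass the filter on low counts. It had 9, 1, 10 and 4 counts in photoconverted tumors 1 to 4 and 2, 0, 460 and 437 counts in control tumors 1 to 4. Control tumors 3 and 4, with Rn45s shares of 4.70% and 23.2%, thus held nearly all of its counts. An exact two-sided permutation test of photoconverted against control tumors gave p = 0.4.

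Hist1h2ba, the H2B gene whose start lies 305 bases away on the opposite strand, had another distribution. It was at 51.9, 10.6, 10.2 and 2.19 CPM in photoconverted tumors and at 44.2, 0.642, 3.77 and 4.03 CPM in controls. Its highest tumors, photoconverted tumor 1 and control tumor 1, had 0.225 and 0.0571 CPM of Hist1h2aa. Its slope on the Rn45s share was the lowest of all members (-1.30, SE 0.27, adjusted p = 0.00426 in edgeR). It did not pass without control tumor 1 (adjusted p = 0.0781 in edgeR), and ran from -1.75 to -0.99 with a tumor left out. Whether reads of near-identical copies enter either value was not tested.

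Photoconverted tumor 4 and control tumor 4 were the most alike libraries by a chi-square of their counts over genes (8.87 per degree of freedom), although they belong to different light groups. Both carry replicate number 4, and both had a high Rn45s share (21.9% and 23.2%) and low total counts. The most alike libraries within a group, photoconverted tumors 1 and 3, stood at 25.3.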
